A study of Rattus norvegicus with 9 samples.

Results

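Levels of 7 genes of mitotic exit and cytokinesis were followed in RNA sequencing of rat heart: Cdc20, Ube2c, Bub1b, Plk1, Cenpf, Kif23 and Prc1. The genes were chosen by name, with earlier results of these data known. In libraries whose gene table lacked the name the transcripts of the same locus were summed. All 7 were found among 24662 loci, and all 7 were among the 14125 loci that passed the filter on low values and were tested. The study profiled 9 libraries in 3 groups of 3, all from Sprague-Dawley rats. In the TAC group, adult left ventricle had been exposed to transverse aortic constriction, an operation that narrows the aorta and loads the heart with pressure. In the Sham group, adult left ventricle was taken after the same surgery with no constriction. In the fetal group, whole ventricle was taken at embryonic day 18, and the titles number these libraries as litters. Trizol was used to extract the fetal RNA and a column kit for fibrous tissue the adult RNA, so age, heart region and extraction cannot be told apart. The adult age, the time since surgery and whether each adult library is a separate animal are not given in the sources used here, so p-values measure the spread between libraries only.

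To leave mitosis, a cell must degrade cyclin B and the inhibitor of separase, and this is done by a ubiquitin ligase, the anaphase-promoting complex or cyclosome (APC/C). Cdc20 activates the APC/C, Ube2c charges its substrates with ubiquitin, and the checkpoint protein BubR1, encoded by Bub1b, holds Cdc20 in check until chromosomes are attached. Plk1 is a kinase that acts from mitotic entry to abscission, and Cenpf is a large protein of the kinetochore and nuclear matrix. Prc1 bundles the antiparallel microtubules of the spindle midzone, and Kif23 is the kinesin of centralspindlin, which positions the cleavage furrow. Cardiomyocytes divide in the fetus and largely stop dividing after birth, while other cells of the heart keep some capacity to divide.

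Promoters of these genes are shown because genes of mitosis commonly carry a pair of elements near their start: CCAAT, bound by NF-Y, and the cell cycle genes homology region (CHR), bound by the DREAM and MMB complexes. RefSeq promoters on build GRCr8, from 250 bases before to 50 after the annotated start, were matched by symbol for 6 of the 7 genes, all except Ube2c. The lines below run 5′ to 3′ on the gene's strand, from 120 bases before the start to 30 after it. Capitals mark the letters TTTGAA of the CHR and CCAAT. Cdc20 (chr5:137255770-137255919, minus strand) and Plk1 (chr1:186147538-186147687, plus strand) act on and with the APC/C, Prc1 (chr1:143659361-143659510, plus strand) had the highest fetal level, and Bub1b (chr3:126016947-126017096, plus strand) is the promoter without CCAAT.
Cdc20: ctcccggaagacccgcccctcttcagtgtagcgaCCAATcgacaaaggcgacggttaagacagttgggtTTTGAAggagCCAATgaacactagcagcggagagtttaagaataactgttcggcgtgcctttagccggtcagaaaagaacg
Plk1: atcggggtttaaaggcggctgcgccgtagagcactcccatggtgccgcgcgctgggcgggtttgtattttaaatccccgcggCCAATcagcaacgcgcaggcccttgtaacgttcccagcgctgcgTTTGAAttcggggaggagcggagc
Prc1: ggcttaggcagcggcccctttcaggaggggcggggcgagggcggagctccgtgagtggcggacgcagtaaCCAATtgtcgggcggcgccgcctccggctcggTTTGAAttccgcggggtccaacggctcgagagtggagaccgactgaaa
Bub1b: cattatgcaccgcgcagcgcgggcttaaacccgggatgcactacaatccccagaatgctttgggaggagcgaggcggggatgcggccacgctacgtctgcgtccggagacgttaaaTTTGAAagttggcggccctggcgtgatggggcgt

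The CHR was searched as TTTGAA or TTCGAA and the other element as CCAAT, each on both strands; in these promoters no match overlapped another. CHR letters were present in 6 of 6 promoters and CCAAT in 5 of 6. Among all 33469 promoters of 300 bases in the table, 19.7% held CHR letters, 37.5% held CCAAT and 8.0% held both. Among the 5383 matched promoters of tested loci the shares were 13.5%, 37.6% and 5.3%. Both were present in 8.6% of the 1426 matched promoters of loci higher in fetal ventricle than in sham, and in 3.6% of the 1324 of loci that were lower. Spacing was taken to the nearest CCAAT on either strand that began before the CHR. In Cdc20 the first base of that CCAAT lay 35 bases before that of the CHR, in Prc1 32, in Plk1 44, in Cenpf 72 and in Kif23 9. Cdc20 held another CCAAT just after its CHR, and the CCAAT of Kif23 lay on the opposite strand. Near the start, from 60 bases before to 30 after, CHR letters were found in 5 of the 6, the exception being Kif23. The share was 5.5% of all promoters and 3.4% of those of tested loci. That window was set after these sequences had been seen. A match describes letters and is not evidence of binding.

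**Figure D1:**
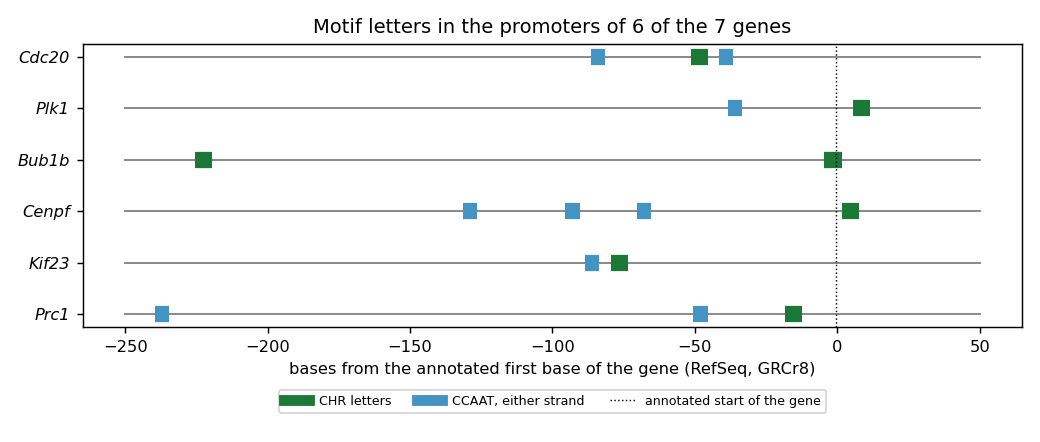
Positions of CHR letters (green) and CCAAT (blue) in the promoters of 6 of the 7 genes, in bases from the annotated first base of the gene; the dotted line is the start. CHR letters lie within 60 bases before to 30 after the start in 5 promoters, and Bub1b has no CCAAT.

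Levels are given as rescaled FPKM: deposited fragments per kilobase per 1e6 fragments, put on one scale across libraries by the median of ratios with a mean library total of 1e6. Since FPKM is per length, levels may be compared between genes. The fragments implied by the deposited confidence bounds were 17.55 to 25.75 per fetal library, 11.89 to 21.58 per sham library and 6.37 to 11.65 per TAC library, in units of 1e6, so that TAC was the shallowest group. Replicate 1 of each group also stood apart: its shortest assembled feature was 43 nt, against 63 nt in replicates 2 and 3, and replicate 1 libraries deviated from their group means together (r across loci of 0.456 to 0.490). Differences between groups were tested with limma on log2(rescaled FPKM + 1) over all 14125 loci, and a gene was called at an adjusted p (Benjamini-Hochberg) below 0.05. Adding 1 shrinks the fold change of genes at low levels, so the ratio of mean levels is given beside it. These are bulk libraries, in which fewer cells of a type and less RNA per cell cannot be told apart.

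All 7 genes were higher in fetal ventricle than in either adult group, and none passed the threshold between TAC and sham. In fetal against sham, 7 of 7 rose, where 22.2% of all loci tested were called higher, 22.9% lower and 45.1% in either direction. Because the genes were chosen with earlier results of these data known, such shares describe the setting and do not test the count. In fetal against TAC, 7 of 7 were higher, where 22.5% of loci were called higher, 22.6% lower and 45.2% in either direction. With upper quartile scaling the split leaned higher, with 3991 of 6657 called loci higher against sham and 4338 of 6789 against TAC; equal library totals gave 3281 of 5764 and 3612 of 5871. All 7 genes were called higher under both. The 3 fetal libraries lay above all 6 adult libraries for every one of the 7 genes, and the lowest fetal level was from 7.55 times (Ube2c) to 31.5 times (Cenpf) the highest adult level. The fetal group lay wholly above sham at 29.1% of all loci and wholly above TAC at 28.2%. The median difference of the 7 genes from sham was 4.21 on the log2 scale, beside 0.0422 over all loci. Cdc20 had the smallest difference of the 7, and 114 of the 14125 loci (0.807%) had one at least as large. The 2 fetal comparisons share the fetal libraries and are not independent.

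**Figure D2:**
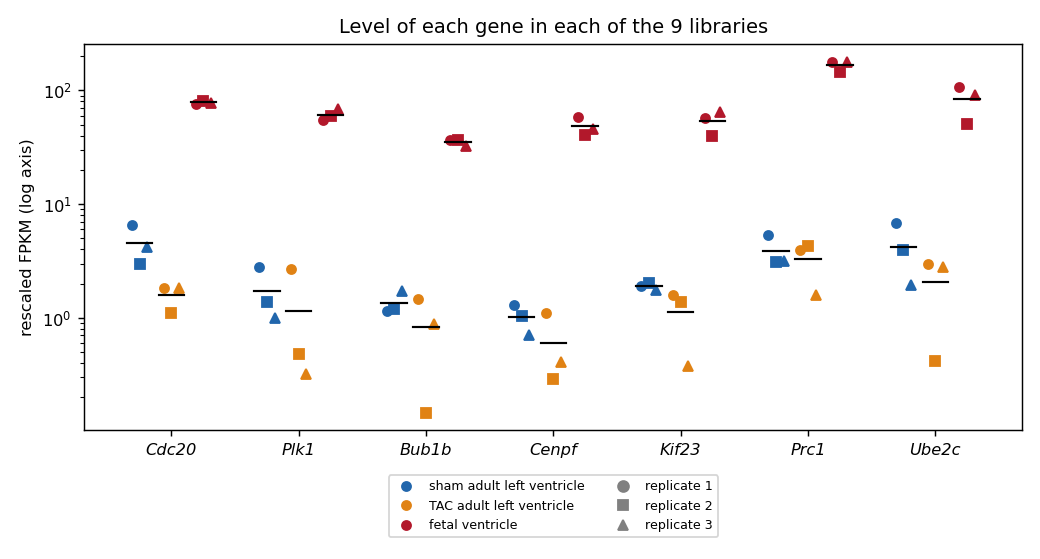
Level of each of the 7 genes in each library (rescaled FPKM, log axis), by group (colour) and replicate (marker shape); black lines are group means. All fetal points lie above all adult points for each gene, and sham and TAC points overlap for 5 of the 7.

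Cdc20 (rn4, chr5:138913180-138916744, 1 reference transcript of 1512 nt) measured 76.0, 80.9 and 77.7 in fetal replicates 1 to 3. It measured 6.53, 2.97 and 4.17 in sham, and 1.82, 1.11 and 1.83 in TAC. The fetal libraries were nearly equal, and the 3 TAC libraries all lay below the 3 sham libraries. The mean was 78.2 ± 2.50 in fetal against 4.55 ± 1.81 in sham (SD, n = 3 each), a 17.2-fold ratio (log2 difference 3.88, SE 0.249, limma adjusted p = 1.1e-05). Against TAC (1.59 ± 0.412, n = 3) the ratio was 49.3 (log2 difference 4.95, limma adjusted p = 4.58e-06).

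Ube2c, the ubiquitin-conjugating partner of the APC/C (rn4, chr3:155800357-155807060, 2 reference transcripts), measured 106, 51.0 and 91.8 in fetal. Sham levels were 6.76, 3.97 and 1.96, and TAC levels were 2.996, 0.413 and 2.77. It was the most variable of the 7 in the fetal group, with replicate 2 lowest, and sham and TAC overlapped. Means were 83.1 ± 28.7, 4.23 ± 2.42 and 2.06 ± 1.43 in the order fetal, sham and TAC (SD, n = 3 each). Fetal against sham was 19.7-fold (log2 difference 4.05, SE 0.507, limma adjusted p = 0.000346), and fetal against TAC was 40.4-fold (log2 difference 4.86, limma adjusted p = 0.000136). The RefSeq gene table names 4 pseudogenes of Ube2c and a related gene, Ube2cl1, with which fragments could be shared, so its level is uncertain to that extent.

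Bub1b (rn4, chr3:105064397-105116140, 1 reference transcript of 3416 nt) had the lowest fetal mean of the 7 genes. It measured 36.7, 36.6 and 32.5 in fetal, 1.15, 1.19 and 1.71 in sham, and 1.47, 0.146 and 0.888 in TAC. Fetal libraries were within a narrow range, and TAC replicate 2 stood below the other adult libraries on 2 implied fragments. The fetal mean of 35.3 ± 2.42 was 26.2 times the sham mean of 1.35 ± 0.310 (SD, n = 3 each; log2 difference 3.96, SE 0.286, limma adjusted p = 1.91e-05). It was 42.3 times the TAC mean of 0.834 ± 0.663 (n = 3; log2 difference 4.37, limma adjusted p = 1.24e-05). With reference transcripts alone the differences were 3.19 (limma adjusted p = 0.0171) and 2.96 (0.0229), and the TAC to sham estimate of Bub1b turned to 0.22.

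Plk1 (rn4, chr1:181003122-181012741, 1 reference transcript of 1833 nt) measured 54.5, 60.01 and 68.2 in fetal. Sham levels were 2.79, 1.38 and 0.993, and TAC levels were 2.67, 0.477 and 0.321. In both adult groups replicate 1 was the highest, and replicates 2 and 3 of TAC rested on 4 and 5 implied fragments. Fetal against sham was 35.4-fold (60.9 ± 6.93 against 1.72 ± 0.945, SD, n = 3 each; log2 difference 4.56, SE 0.408, limma adjusted p = 5.68e-05). Fetal against TAC (1.15 ± 1.31, n = 3) was 52.8-fold (log2 difference 5.00, limma adjusted p = 3.63e-05).

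Cenpf (rn4, chr13:105921073-105962427, 1 reference transcript of 9082 nt) measured 58.4, 40.7 and 46.0 in fetal. Sham levels were 1.29, 1.03 and 0.707, and TAC levels were 1.10, 0.292 and 0.410. Its group means, 48.3 ± 9.07 in fetal, 1.01 ± 0.293 in sham and 0.601 ± 0.438 in TAC (SD, n = 3 each), gave the largest ratios among the 7 genes. They were 47.8 against sham (log2 difference 4.61, SE 0.255, limma adjusted p = 6.2e-06) and 80.4 against TAC (log2 difference 4.96, limma adjusted p = 4.69e-06). These values include transcripts that the authors' assembly built at the locus. In fetal replicates 1 and 2 the reference transcript itself was listed at 0, and assembled transcripts carried 100% of the level; in replicate 3 they carried 81.2%. No adult library had one, and with reference transcripts alone the fetal to sham difference of Cenpf was 0.06 (limma adjusted p = 0.981) and that to TAC 0.49 (limma adjusted p = 0.793).

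Of the midzone genes, Kif23 (rn4, chr8:66050163-66077282, 2 reference transcripts) measured 56.5, 39.7 and 64.0 in fetal. It measured 1.90, 2.03 and 1.74 in sham and 1.60, 1.37 and 0.375 in TAC. The sham libraries were tightly grouped, and all 3 TAC libraries lay below them. The fetal mean of 53.4 ± 12.5 was 28.2 times the sham mean of 1.89 ± 0.141 (SD, n = 3 each; log2 difference 4.21, SE 0.286, limma adjusted p = 1.46e-05). It was 48.0 times the TAC mean of 1.11 ± 0.650 (n = 3; log2 difference 4.71, limma adjusted p = 8.81e-06).

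Prc1 (rn4, chr1:136112674-136133720, 2 reference transcripts) had the highest level of the 7 in every fetal library, at 178, 145 and 179. It measured 5.31, 3.09 and 3.19 in sham and 3.92, 4.28 and 1.58 in TAC, groups that overlapped. Its fetal mean of 167 ± 19.0 was 43.4 times that of sham (3.86 ± 1.25, SD, n = 3 each) and 51.4 times that of TAC (3.26 ± 1.47, n = 3). These were the largest log2 differences of the 7 genes, 5.14 (SE 0.301, limma adjusted p = 7.57e-06) and 5.37 (limma adjusted p = 6.2e-06). RefSeq names 1 pseudogene of Prc1, whose reads could not be separated here.

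The order of the mean levels, per length, was taken within each group. In fetal it ran Prc1, Ube2c, Cdc20, Plk1, Kif23, Cenpf and Bub1b, and 3 neighbouring pairs had ranges that did not overlap: Prc1 over Ube2c, Cdc20 over Plk1, and Cenpf over Bub1b. In sham it ran Cdc20, Ube2c, Prc1, Kif23, Plk1, Bub1b and Cenpf, and Prc1 over Kif23 was the only neighbouring pair whose ranges did not overlap. In TAC it ran Prc1, Ube2c, Cdc20, Plk1, Kif23, Bub1b and Cenpf, and the ranges of all neighbours overlapped.

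Transcript composition could be read for the loci with more than 1 transcript. In all 3 fetal libraries the Prc1 transcript ENSRNOT00000017458 was listed at 0, and ENSRNOT00000017532 carried 47.7%, 63.8% and 77.1% of the level, the rest being assembled transcripts. In the adult libraries the split between these 2 transcripts ran from all of one to all of the other, on few fragments. Assembled transcripts carried 24.9% to 29.2% of the fetal level of Kif23 and none of the adult level. For Bub1b they carried 48.2%, 67.8% and 89.3% of the fetal level, and 0%, 100% and 61.4% of the sham level. Ube2c had no assembled transcript, and ENSRNOT00000020323 carried 100%, 81.9% and 82.6% of its fetal level. Each library was assembled separately, and these splits were not tested.

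The comparison of TAC with sham asks whether pressure overload moves adult levels of these genes. None of the 7 passed the threshold (limma adjusted p = 1 for each), where 0.0142% of all loci, 2 of 14125, were called, 0.00708% in each direction; 602 loci, and of the 7 genes Cdc20 alone, had an unadjusted p below 0.05. All 7 estimates were negative, with a median of -0.44, beside 7206 negative estimates among all loci (51.0%) and a median of -0.0066. The 7 genes were measured in the same adult libraries, so their signs are not independent and the share does not test them. Cdc20 had the largest, at -1.06, with a sham mean 2.87 times that of TAC. Its 95% interval, -1.64 to -0.49, did not hold 0 before the adjustment over 14125 loci. For the other 6 the 95% interval held 0. That of Ube2c was the widest, -1.97 to 0.35 around -0.81, and the others were centred on -0.50 for Kif23, -0.44 for Plk1, -0.42 for Bub1b, -0.35 for Cenpf and -0.23 for Prc1. The direction of Prc1 rested on TAC replicate 3: without that library its estimate was 0.10. With reference transcripts alone the estimate of Bub1b was 0.22. Cdc20 and Kif23, 2 of the 7, lay below sham in all TAC libraries, where 4.57% of all loci did.

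**Figure D3:**
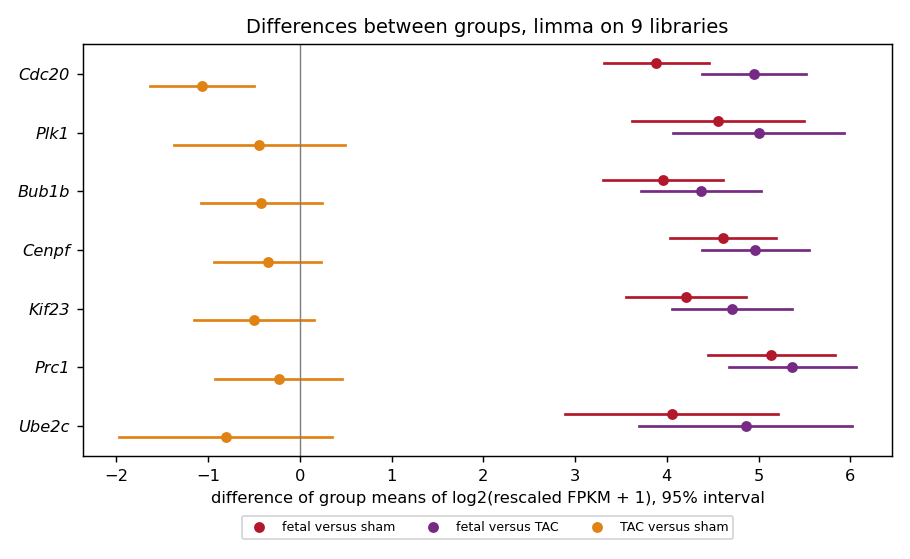
Difference of group means of log2(rescaled FPKM + 1) for each gene, with 95% intervals from limma. The fetal comparisons (red, purple) lie between 3.88 and 5.37, and the TAC to sham estimates (orange) lie between -1.06 and -0.23.

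The adult values rest on few fragments. Summed over the 7 genes, the bounds implied 421, 277 and 261 fragments in the sham libraries and 211, 39 and 145 in the TAC libraries; for loci with several transcripts the bounds also carry the uncertainty of assigning fragments, so these sums are no count of reads. For Cdc20, whose values came out as whole fragments, the numbers were 101, 37 and 96 in sham and 13, 8 and 25 in TAC. The summed level of the 7 genes was 25.7, 15.7 and 14.5 in sham and 15.6, 8.08 and 8.17 in TAC, against 566, 454 and 559 in fetal. Replicate 1 was the highest of its group for 5 of the 7 genes in sham and for 5 of the 7 in TAC. Between libraries of the same number, TAC lay below sham in all 3 pairs for Cdc20, Plk1, Cenpf and Kif23, and in 2 of 3 for Bub1b, Prc1 and Ube2c. The part of depth in these differences was not tested.

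**Figure D4:**
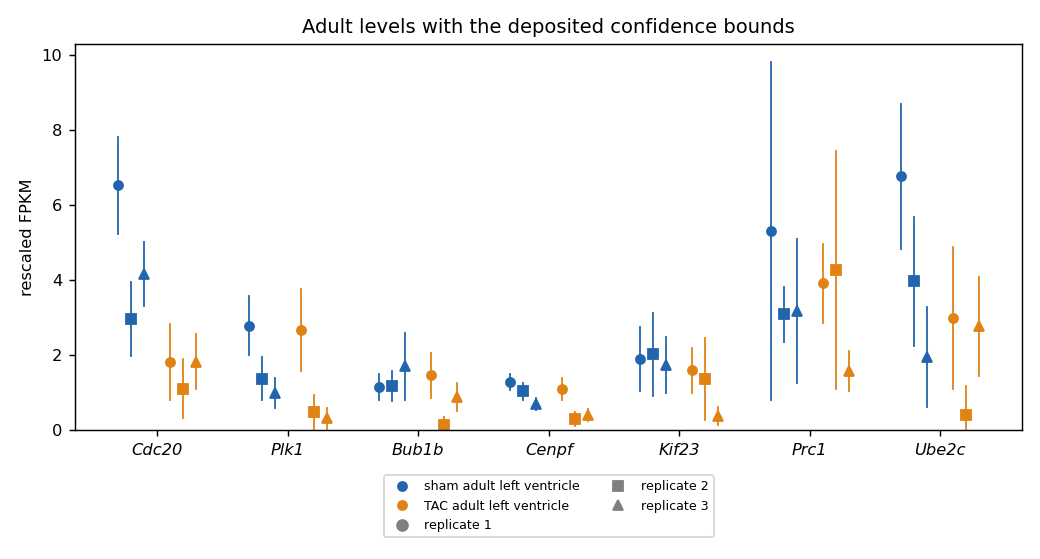
Adult levels of the 7 genes (rescaled FPKM) in sham (blue) and TAC (orange) libraries, with the confidence bounds deposited for each value as vertical lines; marker shape is the replicate. The groups separate for Cdc20 and Kif23, and the bounds are wide for Prc1 in sham replicate 1 and TAC replicate 2.

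Other genes of the same steps were taken from 8 lists of 106 genes, of which 64 were found by symbol and tested. The lists were chosen with earlier results of these data known. Loci had to reach 1 in 3 or more libraries of any group, so genes low in adults could enter through fetal libraries alone. Sgol1, Kif20b, Kif4, Kif14, Ttk and Cdc25c lay below 1 in every adult library. Nuf2, Dsn1, Espl1, Diaph3 and Mastl reached 1 in fewer than 3 adult libraries. The fetal calls of all these genes are no independent support, and each is counted among those that rose in fetal against sham. In fetal against sham 41 rose, 2 fell and 21 did not pass the threshold, with a median difference of 1.33. Of all loci tested, 22.2% were called higher and 22.9% lower, with a median of 0.0422. The counts of single lists below are to be read beside these shares. In fetal against TAC 40 were higher, 2 were lower and 22 did not pass, with a median of 1.22, where 22.5% of all loci were called higher and 22.6% lower. In TAC against sham 0 of 64 passed in limma's test, with a median of 0.02, and 4 had an unadjusted p below 0.05.

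Of the spindle checkpoint and kinetochore list 10 of 14 tested genes rose in fetal against sham and none fell (median 3.47). Nuf2 and Spc25, of the Ndc80 complex, differed by 4.45 (limma adjusted p = 7.74e-06) and 4.38 (4.35e-06). Nuf2 was at most 0.844 in sham and entered the test through its fetal libraries. Bub1, the checkpoint kinase related to BubR1, rose from 1.87 ± 0.627 to 47.6 ± 5.83 (SD, n = 3 each; limma adjusted p = 3.11e-05). Mad1l1 (0.03, limma adjusted p = 0.942) and Mad2l1bp (-0.09, 0.795), which encodes the protein that silences Mad2, did not pass.

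Of the APC/C list 8 of 13 tested genes rose and 1 fell, with a median of 0.77. Fbxo5, which encodes the inhibitor Emi1, had the largest difference, 3.26 (limma adjusted p = 7.27e-05), followed by the scaffold subunit Anapc1 at 1.61 (0.000401). Ube2s, which extends the chains that Ube2c starts, was at 120 ± 9.21 in fetal and 85.5 ± 20.2 in sham (SD, n = 3 each; log2 difference 0.51, limma adjusted p = 0.0468). Fzr1, the activator that replaces Cdc20 after anaphase, was at 29.8 ± 1.99 in fetal and 33.3 ± 18.2 in sham (log2 difference -0.04, limma adjusted p = 0.936). Ube2d1, a conjugating enzyme with many partner ligases, fell (-0.87, limma adjusted p = 0.0119).

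Of the genes of chromatid separation 5 of 5 tested rose (median 1.43), led by Sgol1, a protector of centromeric cohesin, at 3.48 (limma adjusted p = 1.55e-05) and Espl1, which encodes separase, at 3.18 (2.08e-05). Both entered the test through their fetal libraries: Sgol1 was at most 0.540 in sham, and Espl1 at most 1.03 in sham and 0.885 in TAC. The smallest differences were those of Stag1 (1.13, limma adjusted p = 0.00506) and Smc3 (1.23, 0.000343), both of cohesin. Of the chromosomal passenger and Aurora list 3 of 3 rose: Tpx2 by 4.39, Aurkb by 3.81 and Incenp by 3.27 (limma adjusted p at most 2.48e-05). Of the other Polo-like kinases, Plk2 rose from 25.7 ± 3.49 to 52.0 ± 9.82 (SD, n = 3 each; limma adjusted p = 0.00166), and Plk3 did not pass (-0.20, limma adjusted p = 0.621).

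Of the midzone and contractile ring list 9 of 11 rose (median 3.53). Anln, which encodes the ring scaffold anillin, differed by 4.83 (limma adjusted p = 9.55e-06) and the kinesin Kif20b by 3.89 (1.12e-05). Racgap1, the partner of Kif23 in centralspindlin, was at 64.8 ± 6.50 in fetal and 5.01 ± 2.69 in sham (SD, n = 3 each; limma adjusted p = 9e-05), and Kif4, the kinesin that carries Prc1, differed by 3.82 (1.03e-05). Kif20b and Kif4 entered the test through their fetal libraries. Rhoa (0.20, limma adjusted p = 0.921) and Sept7 (0.65, 0.141) did not pass. Rhoa ran from 38.3 to 471 in fetal and from 35.3 to 383 in sham (SE of the difference 1.37), too wide a spread to call it steady. Of the abscission list 0 of 5 tested ESCRT genes rose in limma's test, and Chmp4c, of the abscission checkpoint, fell (-1.44, limma adjusted p = 0.000279). Chmp6 (-0.53, limma adjusted p = 0.0602), Chmp5 (0.09, 0.593) and Vps4b (0.01, 0.957) did not pass. Of the mitotic exit phosphatases and their regulators 5 of 11 rose (median 0.75), among them Mastl, the Greatwall kinase, at 3.76 (limma adjusted p = 0.000169). Mastl was at most 1.029 in sham and entered the test through its fetal libraries. The catalytic subunit Ppp1ca (-0.05, limma adjusted p = 0.835) and Cdc14a (0.06, 0.866) did not pass. Ensa, a substrate of Mastl, did not pass either, at 2.93 (limma adjusted p = 0.145). It was at 0 in 2 sham and 2 TAC libraries. The remaining library was at 22.01 in sham and 23.21 in TAC, within the fetal range of 17.05 to 25.79. The difference of Ensa thus rests on the libraries at 0, and the cause of these values was not tested.

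**Figure D5:**
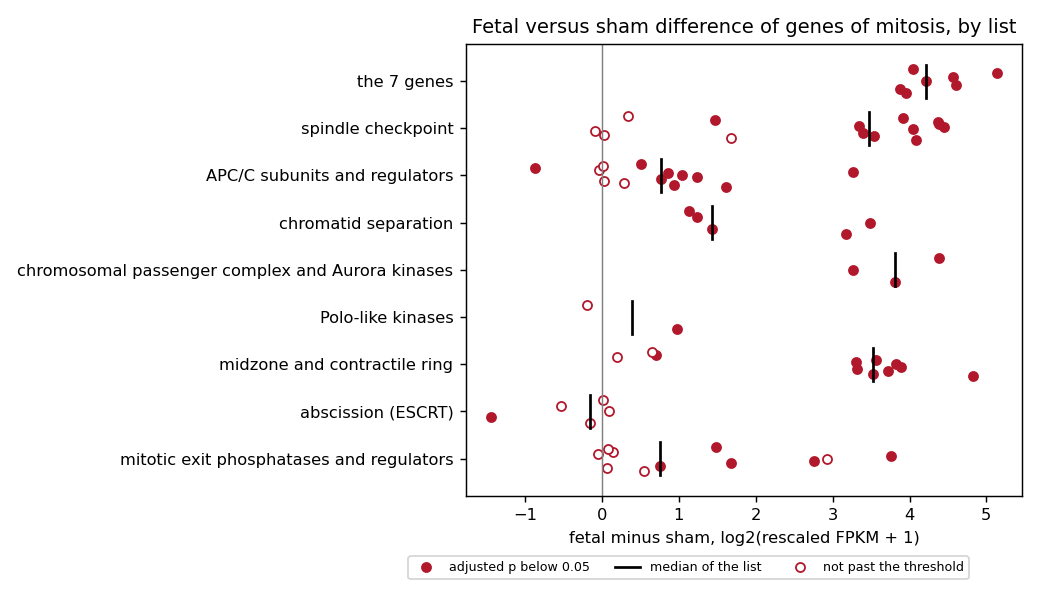
Fetal minus sham difference of log2(rescaled FPKM + 1) for the 7 genes and for the tested genes of 8 lists; filled points passed the threshold (adjusted p below 0.05), and black lines are list medians. The median is 4.21 for the 7 genes, 3.53 for the midzone list, 0.77 for the APC/C list and -0.16 for the abscission list.

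The loci whose pattern was most like the mean of the 7 genes were ranked by Pearson r of log2 levels over the 9 libraries, among 8769 loci with a symbol. In descending order they were Aurkb (r = 0.9971), Plekhk1, Zfp57, Kif20b, Espl1, Akap5, Q69DC1_RAT, Ttk, Cdc2 and Depdc1 (0.9934). Plekhk1, Zfp57, Kif20b, Espl1, Akap5, Ttk and Depdc1 were near the floor in adults, with sham means of 0.161 to 0.683 and lower TAC means. They passed the filter through fetal libraries, which favours this pattern, so their rank is no independent support. The 7 genes themselves had r of 0.9800 (Ube2c) to 0.9983 (Cenpf) with their own mean. In all, 48 loci reached 0.99 and 623 reached 0.95. All 9 points share the step between fetal and adult libraries, and r is a description of these libraries. Levels of the 10 loci varied: Cdc2 was at 123 ± 31.3 in fetal and 4.69 ± 1.74 in sham, and Akap5 at 4.47 ± 0.537 and 0.421 ± 0.0936 (SD, n = 3 each).

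Markers of several other cell types also differed between fetal and adult ventricle. Their counts are to be read beside the shares of all loci in fetal against sham, 22.2% called higher and 22.9% lower. Of the erythroid markers, 12 of 16 were found and 10 tested: 5 rose and 1 fell in fetal against sham. The 5 that rose, Hbe1, Hbg1, Klf1, Epor and Kel, each reached 1 in fewer than 3 adult libraries. They entered the test through fetal libraries, so these calls are no independent support. The summed level of the erythroid markers was 17049 to 27142 in fetal, 5038 to 11265 in sham and 4970 to 13892 in TAC. Most of this sum was Hba-a2 (means of 20752, 8670 and 8038 in the same order), which did not pass in fetal against sham (limma adjusted p = 0.0936). Hbg1 and Rhag were at 0 in all adult libraries, and Hbe2 in all TAC libraries. Of the epicardial markers 3 of 5 rose, and their summed level was 40.2 to 58.1 in fetal, 9.99 to 17.6 in sham and 13.2 to 18.5 in TAC. Macrophage markers fell in 7 of 7, from a summed 279 to 519 in sham (300 to 496 in TAC) to 58.7 to 68.5 in fetal. Lymphocyte markers, 9 of 10 found, fell in 4 of 6 tested, from 54.2 to 74.5 in sham (57.5 to 81.5 in TAC) to 5.22 to 5.73 in fetal, where Cd3d and Cd3e were at 0. Fibroblast markers fell in 5 of 7 and rose in 1, from 1057 to 1518 in sham (1516 to 1617 in TAC) to 400 to 608 in fetal. Endothelial markers fell in 3 of 5 (summed 126 to 224 in fetal, 217 to 333 in sham and 249.3 to 359.2 in TAC). Neural markers, 7 of 8 found, fell in 2 of 5 tested (8.27 to 11.9 in fetal, 14.3 to 20.1 in sham and 15.3 to 19.9 in TAC), with Th at 0 in fetal and Stmn2 at 0 in adults. Of 5 smooth muscle and pericyte markers 1 rose, 1 fell and 3 did not pass, with summed levels of 209 to 266 in fetal, 132 to 294 in sham and 128 to 188 in TAC, so that fetal and sham overlapped. Krt8, of the epicardial markers that rose, also entered the test through fetal libraries. Cd14, Cd3e, Ccl5, Lck and Sox10 lay below 1 in every fetal library and entered through adult libraries. Their calls are no independent support either. The part of these cell types in the levels of the 7 genes was not tested.

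Only 2 of 15 cardiomyocyte markers were found by symbol, so the labelled tissue was checked on these. Actc1, cardiac actin, was at 14021 or more in every library, and Mb, myoglobin, was at 1111 ± 421 in fetal and 21140 ± 3262 in sham (SD, n = 3 each). In 1 fetal library Actc1 reached 135093, far above the others. In TAC against sham 0 of the 52 tested markers passed the threshold in limma's test, and 1 had an unadjusted p below 0.05.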

How the data were processed

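Libraries were prepared with the Illumina TruSeq RNA kit, per the labels' protocols; the kit does not mark strand. The authors deposited FPKM values with confidence bounds per gene and per transcript for each of 9 libraries. Reads were processed with TopHat 1.3.1, Cufflinks 1.0.3 and Cuffdiff on build rn4, per the submitters' processing notes. The deposited FPKM carry a further constant in each library (median from 2.73e+06 to 4.6e+07), so they compare libraries only after rescaling.

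Libraries, assembled separately, were joined through 39492 reference transcripts, which formed 1 locus if 5 or more libraries put them in the same gene. A locus is the sum of its reference and assembled transcripts; assembled features under 200 nt were left out. Of 63 values for the 7 genes, 44 were named in the gene tables and equalled the locus sum within 0.1%; 19 were summed from transcripts. No other reference locus overlapped the 7. Where several loci shared a listed symbol, the one with the highest mean was used. The median of ratios used 13121 loci above 0 in all libraries. Loci reaching 1 in 3 or more libraries were tested on log2(rescaled FPKM + 1) with limma 3.58.1 (R 4.3.3; lmFit and trended eBayes on all 9 libraries with 6 residual degrees of freedom, two-sided, Benjamini-Hochberg over 14125 loci); the script was tested on simulated data. Implied fragments n came from the bounds as (2F/(upper bound - F)) squared, with F the value; 82.7% to 91.8% of low single-transcript values came out whole within 0.02. They cover counting error only.

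Same-numbered libraries deviated from their group means together in all pairs (r across loci 0.161 to 0.490), but differently numbered pairs of replicates 2 and 3 did so too (0.120 to 0.266), so that only replicate 1 stands apart. No label explains this, and a fit with the number as a block was run as an alternative, with others of pseudocount, filter, scaling, batch, transcripts and left-out libraries. The members and lists were chosen with earlier results of these data known. Of each list the 2 largest and 2 smallest fetal to sham differences were named, and partners of the 7 genes (Bub1, Ube2s, Fzr1, Plk2, Plk3, Racgap1, Kif4).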

Additional observations from a re-analysis of the deposited data

How the results depend on the processing

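Under every alternative but 1, 7, 0 and 7 of the 7 genes passed the threshold in fetal against sham, TAC against sham and fetal against TAC. The exception was reference transcripts alone, where Cenpf lost both fetal calls (0.06 and 0.49) and 6 genes passed in each; Bub1b kept its fetal calls and turned from -0.42 to 0.22 in TAC against sham. Its fetal differences there were 3.19 and 2.96. In that setting 2054, 41 and 2133 of 13114 loci were called in the 3 comparisons. Replicates 2 and 3 alone gave 11 loci in TAC against sham. Leaving out 1 library at a time gave 4931 to 6570 loci in fetal against sham, 2 to 5 in TAC against sham (5 without fetal replicate 1, 4 without TAC replicate 1 or 2) and 4923 to 6293 in fetal against TAC, and turned Prc1 to 0.10 in TAC against sham without TAC replicate 3. The cause was not tested for these. With the replicate number as a block, 6615, 2 and 6671 loci were called, and the block changed no call of the 7 genes. The TAC to sham estimate of Cdc20 ran from -1.42 to -0.82, with limma adjusted p from 0.721 to 1. Equal library totals and upper quartile scaling moved the median fetal to sham difference of all loci from 0.0422 to 0.186 and 0.219, small beside those of the 7 genes. Adult levels rest on few fragments, such as 8 for Cdc20 in TAC replicate 2.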
